A study of Bos taurus with 11 samples.

Results

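The genes of the mitochondrial ribosomal proteins were examined in mononuclear blood cells (PBMCs), a fraction of lymphocytes and monocytes, of Ladakhi and Sahiwal cattle. Members were all probes whose gene name in the scanner files begins with MRPL or MRPS and a digit, which gave 143 of 43653 probes and 75 of 17584 named genes, 46 with large subunit names (MRPL) and 29 with small subunit names (MRPS). Each gene was represented by its brightest probe, the probe with the highest mean level over the 11 arrays. The Ladakhi samples (5 arrays) came from females of a breed native to high altitude and were labelled high altitude. The Sahiwal samples (6 arrays) came from females of a breed of low-lying arid and semi-arid country and were labelled low altitude and basal. No treatment is named for either breed, and age and the way the cells were isolated are not given in the sources used here. Total RNA was labelled with Cy3 and hybridised to 1-colour Agilent bovine arrays, 1 sample an array. The labels number the samples within each breed without stating that each is a different animal, so p-values measure the spread between these samples.

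Mitochondria keep their own ribosome, which translates the few respiratory chain subunits that are still encoded in mitochondrial DNA. Its proteins are encoded in the nucleus, made in the cytosol and imported, and they assemble on a 16S rRNA into the large subunit, which joins amino acids, and on a 12S rRNA into the small subunit, which reads the mRNA. Many descend from bacterial ribosomal proteins, while others were added in the lineage that led to animals. Blood mononuclear cells use this ribosome to maintain oxidative phosphorylation, a demand that rises when lymphocytes are activated.

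The array reads each gene through probes of 60 bases, and 4 of them are printed because results below turn on single probes. The MRPL23 probe, of a gene called lower in Ladakhi, lies at chr29:51396450-51399456 on the minus strand, a span longer than the probe itself, so its bases come from both sides of an intron. The MRPL41 probe, at chr11:109897732-109897791 on the plus strand, is the second measured probe of its gene and lost its signal on another Ladakhi array than the first. The MRPL55 probe, at chr7:2914307-2914366 on the plus strand, shows a signal lost on a single array, and the MRPS18C probe, at chr6:102017786-102017845 on the plus strand, was above background on no Ladakhi array. Sequences run 5′ to 3′ as the scanner files give them, positions are on HGSC Btau_3.1, and capitals mark the stop codon that ends the coding sequence.
MRPL23: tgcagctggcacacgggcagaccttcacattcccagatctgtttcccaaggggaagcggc
MRPL41: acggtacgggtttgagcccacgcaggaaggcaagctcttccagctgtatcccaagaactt
MRPL55: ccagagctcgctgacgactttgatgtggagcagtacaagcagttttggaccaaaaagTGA
MRPS18C: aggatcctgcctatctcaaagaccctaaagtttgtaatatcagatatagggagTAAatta

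Levels are log2 of the processed signal minus the 75th percentile of its array, and differences are Ladakhi minus Sahiwal. The Ladakhi arrays were much dimmer, with 4243 to 6608 spots well above background against 17517 to 20574 on the Sahiwal arrays, of 43803 gene spots. The lowest level that counted as well above background lay between 1.42 and 2.24 on the Ladakhi arrays (mean 1.80) and between -3.76 and -2.12 on the Sahiwal arrays (mean -2.81). Breed coincided with the altitude in the labels and with scanner make, image extraction version and slide. Effects of breed, altitude and platform therefore cannot be told apart here. The number of arrays limits the precision. Ladakhi arrays also resembled each other less over probes measured in both breeds. An array's mean correlation with the others of its breed was 0.66 to 0.75 in Ladakhi and 0.91 to 0.92 in Sahiwal.

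Almost the whole set was detected in Sahiwal cells, and 30 of the 75 genes could be measured in both breeds. The brightest probe was well above background on all 6 Sahiwal arrays for 74 of the 75 genes, and MRPL1, which forms the stalk where spent tRNAs leave, reached this on 5. On the Ladakhi arrays, samples 1 to 5 had 31, 29, 46, 36 and 40 of the 75 genes well above background, while Sahiwal sample 4 had 74 and the other Sahiwal samples 75 each. Detection in Ladakhi thus varied between samples of the breed, and no Ladakhi array reached the count of any Sahiwal array.

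A gene counts as measured where 4 or more arrays in Ladakhi, and 4 or more in Sahiwal, showed its brightest probe well above background. The rule was met by 30 of the 75 genes, against 30.2% of the 8790 genes detected on at least 4 Sahiwal arrays. By subunit it held for 20 of 46 large subunit names and 10 of 29 small subunit names. A further 24 genes were above background on 1 to 3 Ladakhi arrays, and 21 on none, against 45.9% on none among those 8790 genes. Detection went with the Sahiwal level: of the 44 members whose Sahiwal mean exceeded the mean Ladakhi limit of 1.80, 29 were measured, and the share among all 3780 genes above that limit was 65.1%.

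**Figure D1:**
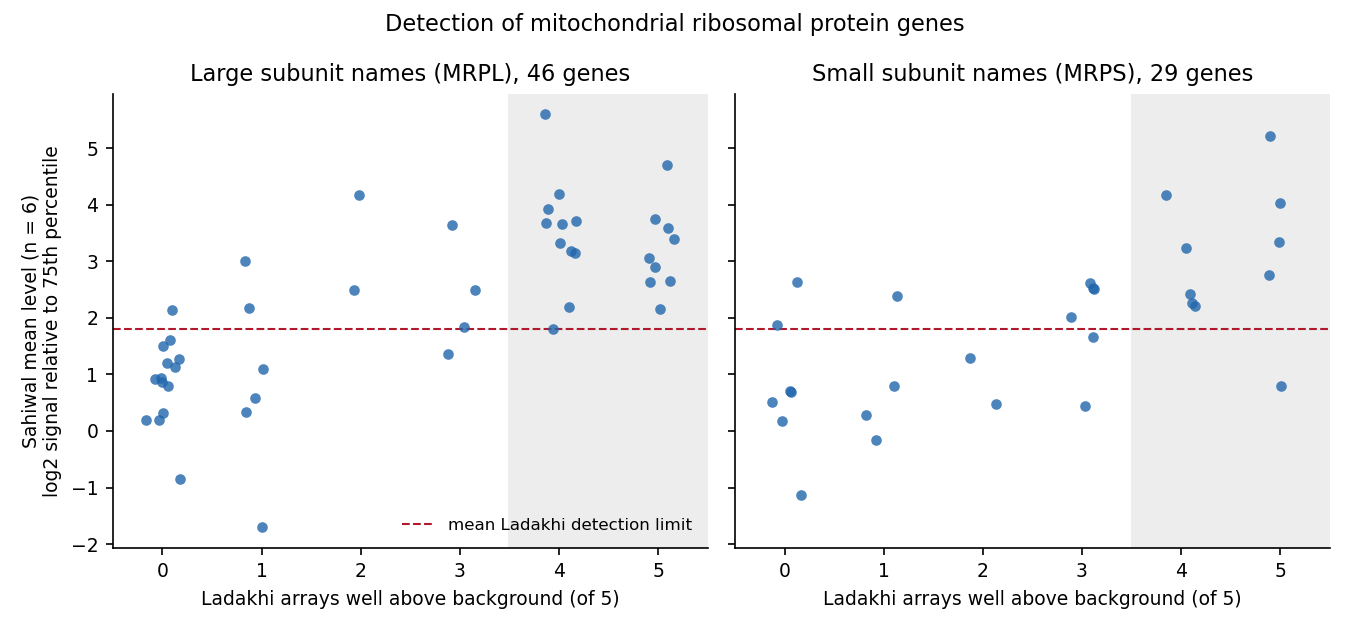
Sahiwal mean level (y, log2 signal relative to the 75th percentile, n = 6) of each member gene by the number of Ladakhi arrays on which it was well above background (x), for large subunit names (left) and small subunit names (right). Each point is a gene, set apart sideways so that points do not cover each other, the dashed line is the mean Ladakhi detection limit of 1.80, and the shaded columns hold the 30 measured genes, of which 1 (MRPS2, at 0.80) lies below the line.

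The comparison of Ladakhi with Sahiwal asks which transcripts of blood cells differ between a high altitude and a low altitude breed. Of the 30 measured members, 4 were called at a Benjamini-Hochberg adjusted p under 0.05 in limma, adjusted over all 17868 probes tested. MRPS2 was higher in Ladakhi, and MRPS15, MRPL23 and MRPL52 were lower. Among all 2651 measured genes 31.3% were called, 17.2% higher and 14% lower, and the members' 4 of 30 lies below that share, a difference that was not tested. The breeds did not overlap for 3 of the 30, against 17.6% of all measured genes. Differences of the 30 ran between -1.60 and 1.67, with a median of -0.09, beside a median of -0.01 over all measured genes.

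MRPS2 encodes a protein with a bacterial counterpart that sits on the mRNA exit side of the small subunit. Its probe lies at chr11:109512312-109512371 on the minus strand. Its level was 2.35, 2.82, 2.72, 2.56 and 1.91 in Ladakhi samples 1 to 5, against a lowest value of 0.14, a median of 0.83 and a highest value of 1.30 in Sahiwal. Every Ladakhi sample lay above every Sahiwal sample. The means were 2.47 ± 0.36 in Ladakhi (SD, n = 5) and 0.80 ± 0.46 in Sahiwal (SD, n = 6), a difference of 1.67 (SE 0.29, 3.18-fold higher, limma adjusted p = 0.000635). As its Sahiwal mean lies below the Ladakhi detection limit, this gene could be measured only if it was higher in Ladakhi.

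MRPS15, a small subunit protein with a bacterial counterpart that binds the 12S rRNA, showed the largest fall among the measured members. Its probe lies at chr3:116652095-116652154 on the plus strand. Its level was 3.31, 3.87, 2.24, 1.32 and 2.13 in Ladakhi samples 1 to 5, against 3.98, 4.09 and 4.46 as the lowest, median and highest values in Sahiwal. All Ladakhi samples lay below all Sahiwal samples, samples 3 to 5 by more than 1 log2 unit, and the value of sample 4 was not well above background. The means were 2.58 ± 1.01 in Ladakhi (SD, n = 5) and 4.17 ± 0.20 in Sahiwal (SD, n = 6), a difference of -1.60 (SE 0.39, 3.02-fold lower, limma adjusted p = 0.00515). With that dim value left out the difference was -1.28 (limma adjusted p = 0.00821). Here and below, p-values with dim values left out are adjusted over the 4034 measured probes alone.

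MRPL23, which lines the tunnel through which the new protein leaves the large subunit, was also lower in Ladakhi. Its level was 2.84, 0.84, 3.43, 3.34 and 3.47 in Ladakhi samples 1 to 5, against 3.59, 3.86 and 4.23 as the lowest, median and highest values in Sahiwal. The breeds did not overlap, but 3 of the Ladakhi values came close to the lowest Sahiwal value, and sample 2 was not well above background. The means were 2.78 ± 1.12 in Ladakhi (SD, n = 5) and 3.93 ± 0.26 in Sahiwal (SD, n = 6), a difference of -1.14 (SE 0.42, 2.21-fold lower, limma adjusted p = 0.0402). Without the dim value the difference was -0.66, which moves the estimate by more than 1.5 times, with a limma adjusted p of 0.0447. That value is adjusted over the 4034 measured probes, where limma gave 0.0625 with the dim value kept. Over all 17868 probes limma gave 0.0622 without Ladakhi sample 2. The call was lost without Ladakhi sample 1 or 2, or without any 1 of Sahiwal samples 1 to 5 (limma adjusted p between 0.0555 and 0.0733), and with scaling on the array median or quantile normalization (0.0884 and 0.0575).

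MRPL52 belongs to the central protuberance, the crown of the large subunit that faces the tRNAs, and has no bacterial counterpart. Its probe lies at chr10:22277731-22277790 on the minus strand. Its level was 2.33, 1.94, 3.36, 2.76 and 3.12 in Ladakhi samples 1 to 5, against 3.13, 3.48 and 4.58 as the lowest, median and highest values in Sahiwal. The breeds overlapped through Ladakhi sample 3, and sample 2 was not well above background. The means were 2.70 ± 0.58 in Ladakhi (SD, n = 5) and 3.65 ± 0.58 in Sahiwal (SD, n = 6), a difference of -0.95 (SE 0.35, 1.93-fold lower, limma adjusted p = 0.0378). The call was lost with the dim value left out (-0.76, limma adjusted p = 0.0830), and without Ladakhi sample 1, 2 or 4 or Sahiwal sample 1, 2 or 3 (limma adjusted p between 0.0564 and 0.0998), and with scaling on the array median (0.0709).

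**Figure D2:**
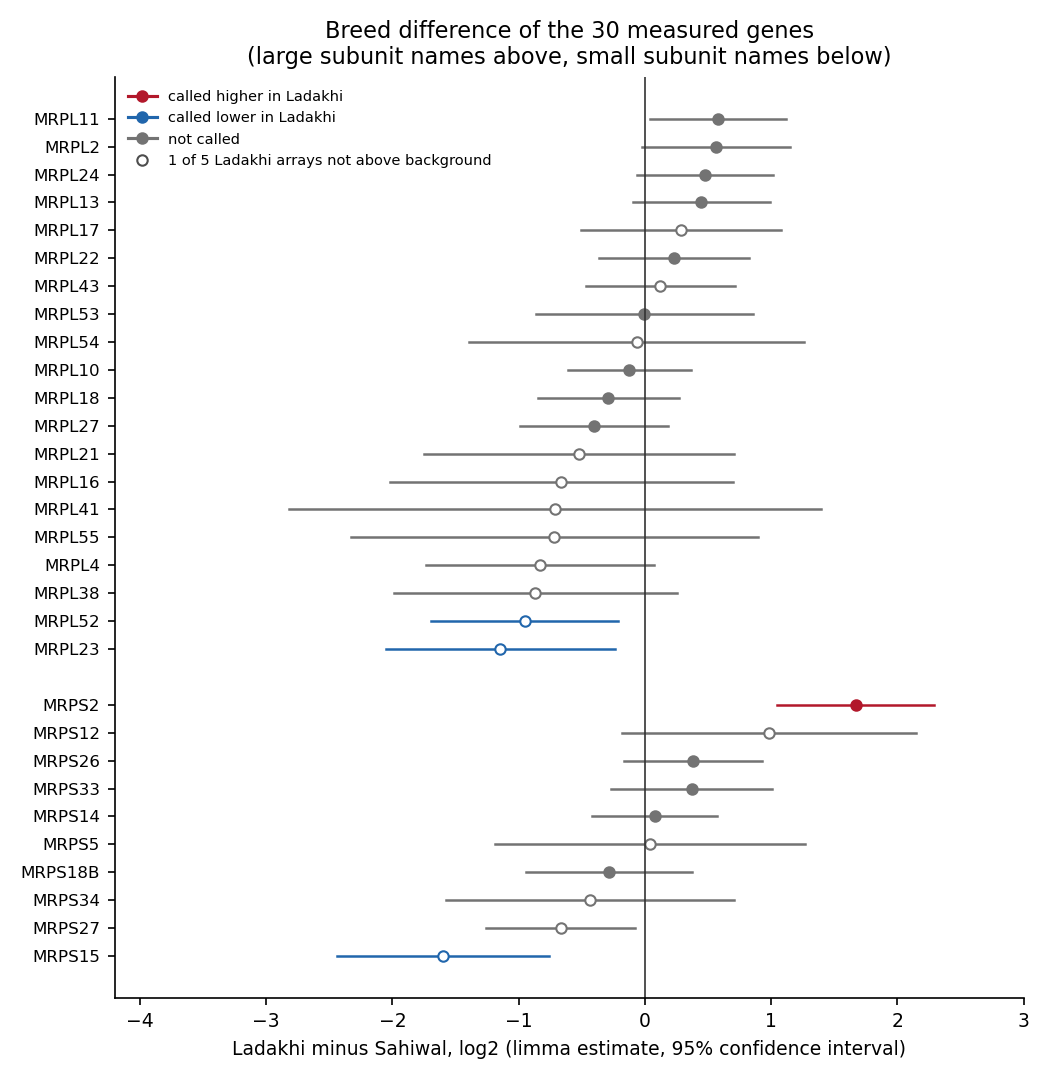
Ladakhi minus Sahiwal difference in log2 units (x) of the 30 measured genes (y), large subunit names above and small subunit names below, with 95% confidence intervals from limma. MRPS2 at 1.67 is called higher, MRPS15, MRPL23 and MRPL52 between -1.60 and -0.95 are called lower, and open points mark the 16 genes of which 1 Ladakhi array was not above background.

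The other 18 measured large subunit genes were not called. In the stalk that recruits translation factors, MRPL11 differed by 0.58 (limma adjusted p = 0.0746), MRPL10 by -0.12, MRPL53 by -0.01 and MRPL54 by -0.06. MRPL11 came closest to a call among them, with Ladakhi values of 3.17, 3.08, 3.52, 3.09 and 3.28 against 2.30, 2.60 and 3.15 as the lowest, median and highest Sahiwal values. At the exit tunnel, MRPL22 differed by 0.23, MRPL24 by 0.47, MRPL17 by 0.29 and MRPL4, whose loop reaches into the tunnel, by -0.83. In the central protuberance, the 4 measured genes MRPL18 (-0.29), MRPL27 (-0.40), MRPL38 (-0.87) and MRPL52 all had negative differences, MRPL52 being the only one called. Differences were negative in 1339 of all 2651 measured genes, and in 564 of the 856 on 4 Ladakhi arrays, to which MRPL38 and MRPL52 belong. The shared sign was not tested. Near the peptidyl transferase centre, where amino acids are joined, MRPL2 differed by 0.56 and MRPL16 by -0.66. The remaining genes were MRPL13 (0.45), MRPL21 (-0.52), MRPL41 (-0.71), MRPL43 (0.12) and MRPL55 (-0.72). The negative values of MRPL16, MRPL21, MRPL41 and MRPL55 each include 1 dim Ladakhi value, and without it they were 0.08, 0.14, 0.60 and 0.26, none of which passed the test. MRPL4 and MRPL38 also include 1 dim Ladakhi value each, and without it they were -0.48 and -0.29, neither of which passed.

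Of the 10 measured small subunit genes, 8 were not called. MRPS12, part of the decoding centre, differed by 0.98 (limma adjusted p = 0.157), and MRPS5, at the mRNA entry, by 0.04. MRPS12 had Ladakhi values of 3.76, 3.18, 4.15, 0.93 and 4.24, against 1.04, 2.36 and 3.09 as the lowest, median and highest Sahiwal values. Its 4 Ladakhi values above background all exceeded the Sahiwal range, and the dim value of sample 4 lay below it. With that dim value left out the difference was 1.56 (limma adjusted p = 0.00464), a step that drops the lowest Ladakhi value and so can only raise it. MRPS14 and MRPS18B, which have bacterial counterparts, differed by 0.08 and -0.29. Among proteins without a bacterial counterpart, MRPS26 differed by 0.38, MRPS33 by 0.37, MRPS34 by -0.43 and MRPS27, a pentatricopeptide repeat protein, by -0.67 (limma adjusted p = 0.0615).

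The sign of many of these differences turned on single Ladakhi spots. Of the 30 measured genes, 14 were well above background on all 5 Ladakhi arrays and 16 on 4, against 32.3% on 4 among all measured genes. The 14 had a median difference of 0.30 (0.15 over all 1795 such genes), with MRPS2 as the only call in limma, where 33.6% of those genes were called, 22.2% higher and 11.4% lower. The 16 had a median of -0.66 (-0.44 over all 856 such genes). Leaving out signals not well above background removes Ladakhi values alone from these genes, the lowest one in all but MRPL17, and so raises the difference by construction in the others. With these signals left out, 6 of the 16 turned positive (17.3% of all such genes), namely MRPL16, MRPL21, MRPL41, MRPL54, MRPL55 and MRPS34 (0.23), the member median became 0.23 (0.11 over all measured genes), and limma called 3 genes higher (MRPS2, MRPS12 and MRPL54) and 2 lower (MRPS15 and MRPL23), where 22.6% of all measured genes were then called higher and 13.5% lower.

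MRPL54, a stalk protein without a bacterial counterpart, was the only one of the 6 that was called after the turn. Its level was 3.67, -0.079, 4.34, 4.00 and 3.70 in Ladakhi samples 1 to 5, against 2.87, 3.16 and 3.48 as the lowest, median and highest values in Sahiwal. The 4 Ladakhi values above background lay above all Sahiwal values, while sample 2 stood far below them at -0.079, the value its array gives to signals at background. Its difference was -0.06 (limma adjusted p = 0.942) with that value and 0.74 (limma adjusted p = 0.0255) without it.

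Where a second probe of the same gene was measured, it could hold a clear signal on the array on which the first had none. For MRPL41, a large subunit protein without a bacterial counterpart, the brightest probe read -0.33, 6.68, 5.86, 6.89 and 5.37 in Ladakhi samples 1 to 5, against a Sahiwal range of 5.09 to 6.31. The MRPL41 probe printed above read 3.39, 5.20, 5.39, -0.45 and 4.88 in the same samples, with a mean difference of -0.32 (SE 0.81). The first probe was thus dim in sample 1 alone and the second in sample 4 alone. For MRPL21, a protein of the large subunit body with a bacterial counterpart, 2 probes that share 52 of their 60 bases read 0.51 and 2.72 in Ladakhi sample 4, and 3.77 and 0.69 in Ladakhi sample 2. In each of these samples 1 probe of the gene was dim while the other was well above background.

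**Figure D3:**
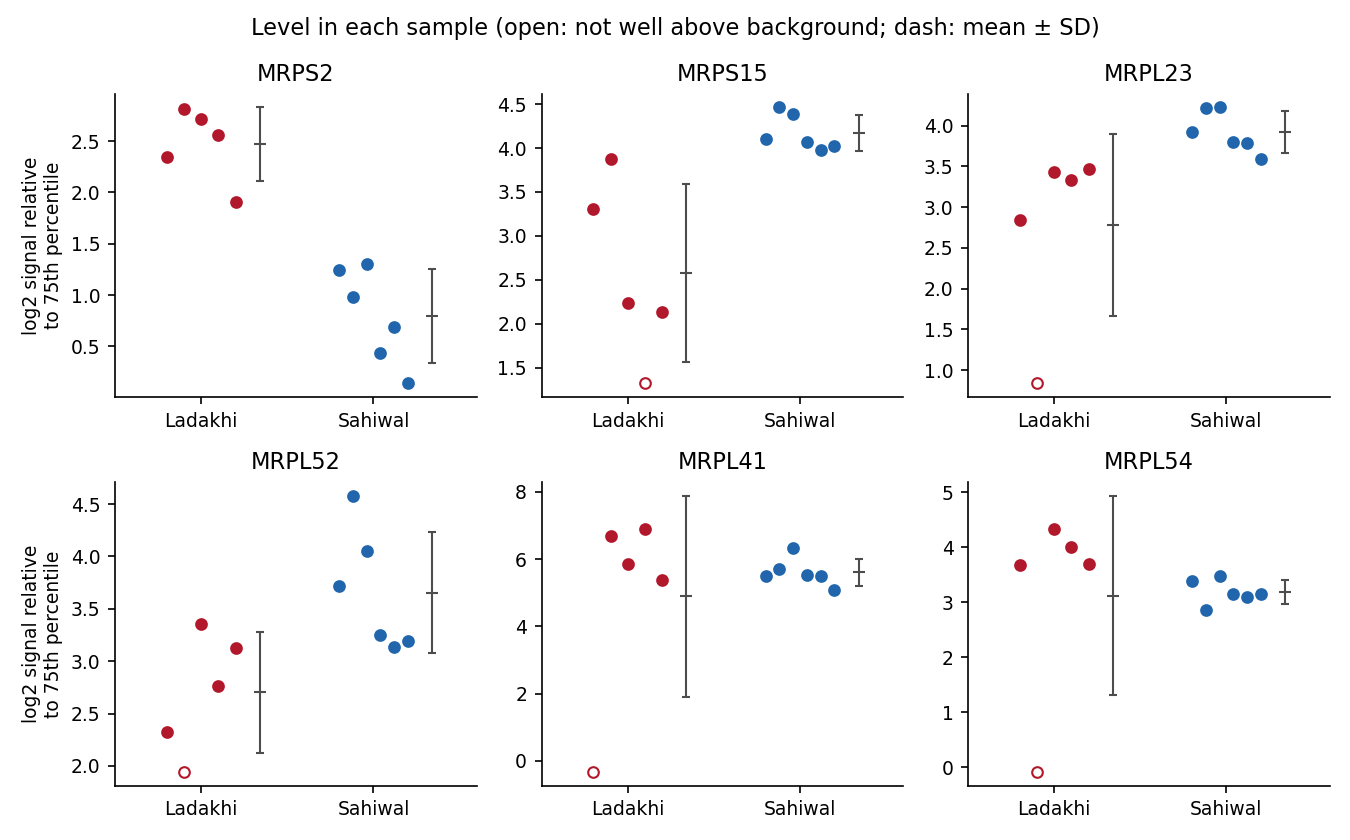
Level (y, log2 signal relative to the 75th percentile) of the brightest probe in each Ladakhi sample (left, n = 5) and Sahiwal sample (right, n = 6) for 6 genes, each panel on its own axis, with the mean and SD beside the points. Open points were not well above background: MRPS2 has none, while MRPL41 at -0.33 and MRPL54 at -0.079 each have 1 Ladakhi value far below the others.

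Probes of 1 gene also differed from each other in size and direction. Of 6 pairs of probes with both members measured, in 4 genes, 2 pairs had differences of opposite sign, and the gap between the 2 differences ran between 0.18 and 1.11. Both pairs of opposite sign were in MRPS33, a small subunit protein without a bacterial counterpart, whose 3 probes differed by 0.37, -0.20 and 0.91 and were above background on all 11 arrays. The probe at 0.91 (SE 0.29, limma adjusted p = 0.0185), at chr4:107937047-107940836 on the minus strand, passed the test, while the other two, which share 41 bases, did not. MRPL43, a large subunit protein without a bacterial counterpart, had measured probes at 0.12 and 0.59, neither of which passed. Pairs with an unmeasured probe are outside this count. The second probes of MRPL17 and MRPL18 were each above background on 1 Ladakhi array, with Sahiwal means of 2.25 and 2.67. They differed by -1.19 and -1.52 (limma adjusted p = 0.0312 and 0.00706), while the brightest probes differed by 0.29 and -0.29 and were not called. Over 11 pairs that share at least 15 bases, in 9 genes, the median gap was 0.57 and the largest 1.53, and most of these pairs hold a probe that was not measured.

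Of the 24 genes above background on 1 to 3 Ladakhi arrays, 12 had a Sahiwal mean above the Ladakhi limit, so that a lower level could be seen. Here every dim signal was raised to the smallest one that its array scored as well above background. By limma 3 of the 12 were then lower, against 39.1% of all such genes, and 1 was higher, against 0.665%. This raising understates falls and overstates rises. MRPL20, which helps to assemble the large subunit in bacteria, read 1.83, 3.21, 0.83, 3.33 and 0.42 in Ladakhi samples 1 to 5, against 3.82, 4.14 and 4.48 as its lowest, median and highest Sahiwal values. The breeds did not overlap, and Ladakhi samples 2 and 4 alone were above background. MRPL20 averaged 2.29 in Ladakhi after raising and 4.17 ± 0.29 in Sahiwal (SD, n = 6), a difference of -1.88 (SE 0.35, limma adjusted p = 0.000138). MRPL46, of the central protuberance, differed by -1.21 and MRPL36, a small protein with a bacterial counterpart, by -0.77 (limma adjusted p = 0.000478 and 0.0333). A second MRPL36 probe, less bright but above background on 4 Ladakhi and 6 Sahiwal arrays, differed by -0.43 (SE 0.54, limma adjusted p = 0.542), so the call of MRPL36 was not shared by its measured probe. MRPL42 differed by 0.74 (limma adjusted p = 0.0225), with a Sahiwal mean of 1.84 that barely exceeded the limit. No direction is read for the 12 with a Sahiwal mean below it.

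Of the 21 genes above background on no Ladakhi array, 3 had a Sahiwal mean above the limit and so a lower bound on their fall. The bound sets the Sahiwal mean over the mean of the lowest Ladakhi signals well above background. MRPS16, a small subunit protein with a bacterial counterpart, read a dim 0.79, 0.41, -0.82, 1.66 and -0.18 in Ladakhi samples 1 to 5, against 2.35, 2.67 and 2.83 as its lowest, median and highest Sahiwal values. No Ladakhi value reached the Sahiwal range, and it was at least 1.77-fold lower in Ladakhi (measured means 0.37 in Ladakhi and 2.63 in Sahiwal, limma adjusted p = 0.000473). MRPL15, a large subunit protein with a bacterial counterpart, read a dim -0.33, -0.079, 0.87, 0.49 and 0.71 in Ladakhi samples 1 to 5, against 1.35, 1.98 and 3.19 as its lowest, median and highest Sahiwal values. MRPL15 did not overlap between breeds either and was at least 1.27-fold lower (measured means 0.33 in Ladakhi and 2.14 in Sahiwal, limma adjusted p = 0.00116). MRPS18C, the closest relative of bacterial S18, read a dim 0.61, 1.13, 1.35, 1.71 and 1.22 in Ladakhi samples 1 to 5, against 1.51, 1.92 and 2.14 as its lowest, median and highest Sahiwal values. MRPS18C, whose breeds overlapped, was at least 1.05-fold lower (measured means 1.21 in Ladakhi and 1.87 in Sahiwal, limma adjusted p = 0.0470). With dim signals raised, MRPS16 alone of the 3 kept its call (limma adjusted p = 0.00313, against 0.320 for MRPL15 and 0.786 for MRPS18C).

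Large and small subunit genes were set beside each other. The median difference was -0.21 over the 20 large subunit genes and 0.06 over the 10 small subunit genes, against -0.01 over all measured genes. In Ladakhi samples 1 to 5 the median departure from the Sahiwal mean was -0.32, 0.10, 0.41, -0.13 and 0.09 for large subunit genes and 0.00, -0.03, 0.65, 0.02 and 0.42 for small subunit genes. In the Sahiwal samples these medians ran between -0.31 and 0.30 for the large and between -0.37 and 0.23 for the small subunit. The breeds overlapped for both subunits, and Ladakhi sample 3 stood highest for both, as it did over all measured genes (0.44). With signals not well above background left out, the medians were 0.19 for the large and 0.30 for the small subunit, against 0.11 over all measured genes. The large subunit median ran between -0.38 (without Ladakhi sample 3) and -3.3e-05 (without Ladakhi sample 1) as each sample was left out. The small subunit median ran between -0.09 (without Ladakhi sample 3) and 0.25 (without Ladakhi sample 1), and was -0.0067 with quantile normalization and -0.08 with array weights.

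For a few members the name and the protein's place differ. MRPS18A and MRPS30 sit in the large subunit, and MRPS36 is known from mammals as a component of the 2-oxoglutarate dehydrogenase complex. None of these genes was measured, so moving them left the medians and the calls where they were.

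**Figure D4:**
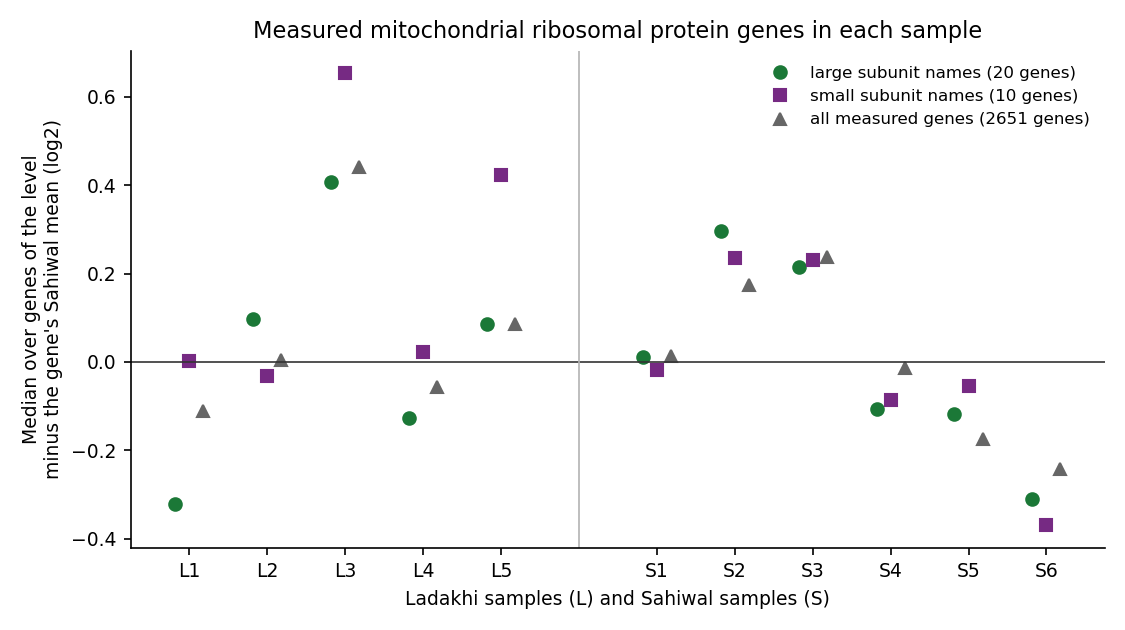
Median over genes of the level minus the gene's Sahiwal mean, in log2 units (y), in each Ladakhi sample (left) and Sahiwal sample (right), for 20 large subunit genes, 10 small subunit genes and all 2651 measured genes. Ladakhi medians lie between -0.32 and 0.65, the Sahiwal medians between -0.37 and 0.30, and Ladakhi sample 3 is the highest Ladakhi sample in all 3 gene sets.

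Within Sahiwal, where nearly every member was detected, levels of the members varied little between samples. The SD over the 6 samples had a median of 0.38 over the 74 genes detected on all 6 arrays, against 0.46 over all 7743 such genes. MRPL28, a large subunit protein with a bacterial counterpart, varied least, with values between 0.80 and 1.03 (SD 0.08). MRPS7, which organises the head of the small subunit, varied most (SD 0.94), with 2.74, 3.61, 3.61, 1.92, 1.75 and 1.51 in Sahiwal samples 1 to 6. Samples 1 and 2 share a slide and samples 3 to 6 the other, and the part of slide in this spread was not tested.

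A list of 8 further genes held mitochondrial ribosomal proteins that carry other names, and OXA1L, a membrane insertase that is not itself a ribosomal protein. Of these 8, 5 were measured, OXA1L among them (0.70, limma adjusted p = 0.0711). Limma called 1 of the 5, beside 31.3% of all measured genes. That gene, MRPL58 (ICT1), a peptidyl-tRNA hydrolase built into the large subunit, averaged 3.33 ± 0.69 in Ladakhi (SD, n = 5) and 4.26 ± 0.35 in Sahiwal (SD, n = 6), a difference of -0.93 (limma adjusted p = 0.0342). Its breeds did not overlap (2.10 to 3.80 in Ladakhi against 3.88 to 4.93 in Sahiwal), and without 1 dim Ladakhi value the call was lost (-0.62, limma adjusted p = 0.0617). CHCHD1, a small subunit protein named here after its values were seen, was above background on no Ladakhi array and at least 3.02-fold lower in Ladakhi (measured means 0.43 in Ladakhi and 3.40 in Sahiwal, limma adjusted p = 0.000140).

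Companion genes of mitochondrial gene expression are read beside the 15.1% of all genes on the array that were measured. Of 17 translation factors on the array 2 were measured, and neither was called: the elongation factor TUFM differed by -0.03 (limma adjusted p = 0.933) and the mRNA-stabilising protein SLIRP by 0.03 (limma adjusted p = 0.946). Of 24 ribosome assembly genes 4 were measured and 1 was called, RPUSD3, which acts in the pseudouridine module of 16S rRNA maturation. RPUSD3 read 3.87, 3.93, 4.10, 3.30 and 3.80 in Ladakhi samples, against 1.50, 2.35 and 2.71 as its lowest, median and highest Sahiwal values, a difference of 1.57 (limma adjusted p = 0.000795). Of 12 transcription and RNA processing genes 1 was measured, HSD17B10, a subunit of mitochondrial RNase P, which read 3.94, 2.51, 4.36, 4.46 and 4.76 in Ladakhi and between 4.85 and 5.76 in Sahiwal, and differed by -1.23 (limma adjusted p = 0.0380) in a fit that drops 2 Sahiwal spots with an outlier mark. In all 2 of these 7 measured genes were called, beside 31.3% of all measured genes.

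Marker genes of several blood cell types did not move one way between the breeds. The summed level of the 4 T cell markers ran between 4.02 and 6.17 in Ladakhi and between 4.57 and 6.29 in Sahiwal. Monocyte markers ran between 5.34 and 6.76 in Ladakhi and between 6.45 and 7.73 in Sahiwal, and the 3 cytotoxic markers between 4.84 and 6.84 in Ladakhi and between 3.49 and 5.90 in Sahiwal. None of the 4 neutrophil markers was above background on a Ladakhi array, and their sum reached at most 1.92 in Ladakhi, at background, and at most 5.83 in Sahiwal. Red cell markers ran between 3.58 and 4.91 in Ladakhi and between 1.69 and 6.12 in Sahiwal, and platelet markers between 6.11 and 6.97 in Ladakhi and between 3.33 and 7.85 in Sahiwal. Among the T cell and monocyte markers that were measured, limma called the T cell gene CD2 (2.45) and the myeloid gene FCER1G (1.80) higher, and the monocyte enzyme gene LYZ (-1.82) lower. The Sahiwal means of CD2 and FCER1G, 0.19 and 1.43, lie below the mean Ladakhi detection limit. A lower Ladakhi level of these 2 genes could therefore not have been measured. The T cell genes CD3E and CD3G, above background on 2 and 3 Ladakhi arrays, ran the other way (-1.60 and -1.29 with dim signals raised, limma adjusted p = 0.00699 and 0.00405). CD3D, which was measured, differed by 1.07 and was not called (limma adjusted p = 0.205), so the CD3 genes did not share a direction. In bulk RNA fewer cells of a type and less RNA per cell cannot be told apart, and the part of cell composition in the members' differences was not tested.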

How the data were processed

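Per the labels' protocols, total RNA of mononuclear cells was labelled with Cy3. Per the file headers, the deposited intensity is the processed signal of Agilent Feature Extraction, a background-subtracted spot signal with a surrogate for spots at background, and the deposited 0 or 1 marks give spots well above background. A value table on a log2 scale was deposited too and served only as an alternative: each of its 11 columns followed an array with another number in its breed, so the numbering is unsettled, and the text numbers samples by scanner file. Its column medians (1.60 to 2.32 in Ladakhi, -0.73 to 0.00 in Sahiwal) leave its centring unknown. Per the file headers, an Agilent scanner was used for the Ladakhi slides (extraction version 12.0.1.1) and an Axon GenePix scanner for the Sahiwal slides (extraction version 9.5.3.1).

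Spots of 1 probe were averaged after removal of control spots and of 294 spots marked as outliers, and log2 signals were centred on each array's 75th percentile. The 17868 probes with 4 or more arrays well above background in a breed were tested with limma 3.58.1 in R 4.3.3 (two-sided, Benjamini-Hochberg, adjusted p under 0.05), which was tested on simulated data. The fit with signals not well above background left out covered the 4034 measured probes and was adjusted over those alone. Of the 143 member probes, 124 were found in the RefSeq table (assembly ARS-UCD2.0) and 36 were measured; 30 genes had 1 probe, and 3 probes lie on the strand opposite to their gene. Values were printed for all called measured members, for members on no Ladakhi array with a bound, for genes with several measured probes and for called companion genes; others were named after their values were seen. The members and lists were chosen with earlier results of these data known. Alternatives covered background correction, scaling, filters, dim signals, probe choice, slide and number blocks, variance model, the value table and leaving out each array. A marker result is not reported here.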

Additional observations from a re-analysis of the deposited data

Results flagged for a closer look

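In 9 of 64 sets of values, 1 sample lay far from the others of its breed by Dixon's test. In 8 of these it was the 1 Ladakhi array on which the probe was not well above background: sample 1 read -0.33, the surrogate of that array, for MRPL16 (others 2.69 to 3.87), MRPL41 (others 5.37 to 6.89) and MRPS5 (others 2.52 to 3.60). Sample 2 read 0.84 for MRPL23 (others 2.84 to 3.47) and -0.079 for MRPL54 (others 3.67 to 4.34). Sample 4 read 0.51 for MRPL21 (others 3.28 to 4.25) and -0.45 for MRPL55 (others 4.02 to 4.90), and sample 5 read -0.90 for MRPS34 (others 2.16 to 2.81). The ninth was Sahiwal sample 6, which read 2.10 for MRPL24, where the other Sahiwal samples read 2.62 to 2.91.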

How the results depend on the processing

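MRPS2 and MRPS15 kept their direction and their call under all 29 alternatives, with differences between 1.54 and 1.90 for MRPS2 and between -1.92 and -0.90 for MRPS15. MRPL23 and MRPL52 kept theirs under 17 and 18 of 29. MRPS2 could be measured only if it was higher in Ladakhi, so the alternatives lend its direction no separate support. The count of members called higher, 1 in the report, was 7 with normexp background correction, 4 with quantile normalization, 2 with cyclic loess, 2 with no filter on dim probes, 3 with dim signals raised, 2 with slide as a random block and 11 with all probes of a gene averaged. The count called lower, 3 in the report, was 5 with normexp, 1 with scaling on the array median and 1 with only measured probes adjusted over. With signals not well above background left out, an alternative chosen after seeing the data, 3 were higher, and the large subunit median moved to 0.19. Leaving out 1 sample gave 1 to 3 higher (3 without Sahiwal sample 2, 2 without Ladakhi sample 2 or 4) and 1 to 5 lower (5 without Ladakhi sample 3, 1 without Ladakhi sample 1 or 2 or Sahiwal sample 1, 2 or 3). Scaling alternatives that shifted all measured probes (by -1.51 with normexp, -2.96 with the array median, 0.21 with quantile normalization and 0.46 with cyclic loess) are given relative to that shift.

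Averaging a gene's probes turned the sign of MRPL4 (1.09), MRPL21 (1.05), MRPL23 (0.0023), MRPL52 (1.70), MRPL53 (1.35), MRPL54 (0.94) and MRPS27 (1.29) to positive and of MRPL17 (-0.45) and MRPL24 (-0.13) to negative, and moved the medians to 0.0781 for the large and 0.82 for the small subunit. It averages in probes at background in 1 or both breeds: the second MRPL52 probe was above background on no array and read -0.50 in Ladakhi and -4.84 in Sahiwal. MRPL54 ran between -0.37 and 0.74 as each sample was left out, turning to 0.74 without Ladakhi sample 2, and turned to 0.74 with dim signals left out, and MRPL35 to 0.74 with dim signals raised, where its Sahiwal mean lies below the Ladakhi limit.

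Samples of the same number did not deviate together (correlations between -0.05 and 0.02 over measured probes), and the main fit used no pairing. As the numbering is unsettled, these correlations cannot show whether samples were paired. With the replicate block, which leaves out Sahiwal sample 6 since it has no Ladakhi partner, 1 member was called lower in place of 3 and 6879 probes in all in place of 7915. The dim Ladakhi signal limits what can be measured: the brightest probes of 45 of the 75 genes gave no full comparison, and of these genes MRPL36 had another probe that did.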
